A study of Mus musculus with 10 samples.

Results

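The 3 genes described here are Hnrnpll, its paralog Hnrnpl and Ptprc, the gene of the phosphatase CD45, out of 22380 genes quantified in germinal center (GC) B cells. They were chosen on these data: Hnrnpll because its summed count was 0 in both libraries of heterozygous mice, Hnrnpl as the related gene, and Ptprc as the transcript whose splicing the pair controls. Together they have 14 of the 64019 quantified transcripts, 3 of Hnrnpll, 6 of Hnrnpl and 5 of Ptprc. Because the absence from heterozygotes chose Hnrnpll, every value of Hnrnpll against heterozygotes is given as a description, with no test.

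The question of the study was whether GC B cells need ZBTB38, a transcription factor that binds methylated DNA. ZBTB38 WT libraries (n = 2) came from mice with Zbtb38fl/fl and no Cre, ZBTB38 HET libraries (n = 2) from mice with Zbtb38fl/+ and Vav-Cre, and ZBTB38 KO libraries (n = 6) from mice with Zbtb38fl/fl and Vav-Cre, which is active mainly in blood-forming cells, all on C57Bl6/N. Each library held NP-specific GC B cells sorted 2 weeks after immunization with NP-OVA in Alhydrogel, a protein antigen with an alum adjuvant, and the ages of the mice were not used here. The floxed allele came from a single founder made in C57Bl6/J zygotes and backcrossed to C57Bl6/N, so all 3 groups trace to the same founder, and WT differs from HET and KO in Cre as well as in the allele.

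CD45 is a membrane phosphatase of all nucleated blood cells that sets the activity of Src-family kinases below antigen receptors. Its messenger RNA has 3 neighbouring exons, called A, B and C, that are skipped or kept, and B cells are known for the long form that keeps all of them. The heterogeneous nuclear ribonucleoproteins L and LL bind CA-rich RNA and repress the variable exons, and the LL protein is known from activated T cells and plasma cells, where the short forms of CD45 appear.

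Ptprc lies on the minus strand of chromosome 1 (chr1:138062861-138175708, GRCm38, as are all positions here), Hnrnpl on the plus strand of chromosome 7 (chr7:28808541-28822266) and Hnrnpll on the minus strand of chromosome 17 (chr17:80029487-80062334). The variable exons are coding exons 4, 5 and 6 of Ptprc, 129, 147 and 141 bases long, and are shown because they are what the splicing values below count. Capitals mark the stretch with the letters ACACAC on the transcript strand, searched as a CA-rich motif. It was found in exon C, at 2 overlapping places, and its letters are not in exons A and B.
exon A, chr1:138122456-138122584: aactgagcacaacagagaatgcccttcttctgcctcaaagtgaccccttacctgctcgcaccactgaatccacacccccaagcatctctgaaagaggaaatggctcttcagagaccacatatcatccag
exon B, chr1:138120020-138120166: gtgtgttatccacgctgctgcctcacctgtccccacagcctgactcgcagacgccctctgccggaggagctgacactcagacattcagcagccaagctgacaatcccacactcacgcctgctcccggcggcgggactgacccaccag
exon C, chr1:138117754-138117894: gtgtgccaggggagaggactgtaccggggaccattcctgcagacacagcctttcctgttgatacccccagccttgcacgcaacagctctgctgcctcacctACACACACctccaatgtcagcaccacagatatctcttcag
Among internal exons of the same length in the annotation, 2.79% of 1399 with the length of A, 2.30% of 1262 with that of B and 3.34% of 1227 with that of C held the motif.

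The complete Ptprc transcripts differ at what follows exon 3, shown here as the last 15 bases of exon 3 in lower case and the next 15 bases in capitals.
Ptprc-207, exon 3 to exon 4: ctacacccagtgatgAACTGAGCACAACAG
Ptprc-203, exon 3 to exon 7: ctacacccagtgatgGTGCCAGCCTCACAA
Ptprc-204, exon 3 to exon 8: ctacacccagtgatgCTACCACAACGAAGC
Ptprc-207 (ENSMUST00000183301.7, 5074 bases) keeps A, B and C. Ptprc-203 (ENSMUST00000182283.7, 4702 bases) lacks all 3, and Ptprc-204 (ENSMUST00000182755.7, 4611 bases) also lacks exon 7. Ptprc-213 (ENSMUST00000195533.5, 702 bases) has only B, and Ptprc-212 (ENSMUST00000193650.1, 415 bases) has A and 57 bases of C. Both of these are fragments with an incomplete coding sequence. Other combinations of A, B and C were not among the 5 transcripts, so reads from them had to be assigned to these.

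**Figure D1:**
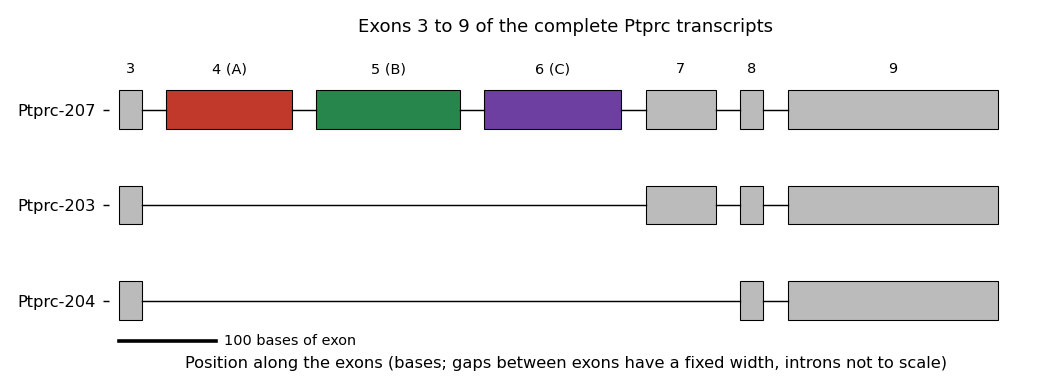
Exons 3 to 9 of the 3 complete Ptprc transcripts, with exon widths in bases to scale and gaps between exons at a fixed width. Ptprc-207 keeps exons A, B and C of 129, 147 and 141 bases, Ptprc-203 joins exon 3 to exon 7, and Ptprc-204 joins exon 3 to exon 8.

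The libraries held between 26612431 and 41059082 estimated counts. Zbtb38, the targeted gene, had normalised levels of 157 ± 7.02 CPM in WT (SD, n = 2), 112 ± 8.23 in HET (SD, n = 2) and 31.7 ± 10.8 in KO (SD, n = 6), which was in the order of the labels. These sums take in every exon. The authors report that reads within the floxed exon, which holds the whole coding sequence, were fully lost in KO. CPM here are counts scaled to library size after TMM normalization. All 10 GC B cell markers had counts in every library. Markers of other cells were not at 0. The 12 T cell markers summed to 158 and 159 CPM in WT, 29.0 and 41.7 CPM in HET and 46.9 to 134 CPM in KO, and the 10 myeloid markers summed to 415 and 502 CPM in WT, 75.5 and 76.4 CPM in HET and 54.6 to 682 CPM in KO. For both lists the HET libraries lay below both WT libraries.

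Hnrnpll was read at low levels in WT and KO and not at all in HET. Its estimated counts were 202 and 149 in the WT libraries, 0 and 0 in the HET libraries, and 54, 98 and 166 as the lowest, median and highest of the KO libraries. In CPM these were 4.85 and 5.15 in WT, 0 and 0 in HET, and 1.82, 3.38 and 4.99 in KO. Both HET libraries lay below every other library, and the WT and KO libraries overlapped, since the highest KO library stood between the 2 WT libraries. A count of 0 allows up to 3 counts in a library, or 0.0956 and 0.109 CPM in the HET libraries. Against the mean of these limits, the level was at least 49.0-fold higher in WT and at least 32.1-fold higher in KO. These limits cover counting error only, since copies made by PCR were not told apart. The fold values take the WT and KO means as exact. They make no allowance for the choice of the gene by its 0 counts in HET, and are a description.

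Between WT and KO, which the choice of the gene did not use, Hnrnpll did not pass the test. Its log2 fold change, WT over KO, was 0.61 (SE 0.487, 95% interval -0.47 to 1.68, edgeR adjusted p = 0.999). Of 14203 genes tested in WT against KO, 1 gene (0.00704%) was called at an adjusted p under 0.1, and of 13347 in WT plus HET against KO 1 gene (0.00749%), and both times this was Zbtb38. In HET against KO and in WT against HET, no gene of 14354 was called other than Hnrnpll (0.00697% in each), whose values in HET chose it, so nothing is read from that.

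All 3 Hnrnpll transcripts were at 0 in both HET libraries. Hnrnpll-205 (ENSMUST00000184635.7), which has the complete coding sequence, had 1.21 and 1.96 TPM in WT and 0.553, 0.939 and 1.73 TPM as lowest, median and highest in KO. TPM are relative abundances corrected for transcript length. Hnrnpll-203 (ENSMUST00000184297.7), annotated as a target of nonsense-mediated decay, had 1.07 and 0.430 TPM in WT and 0, 0.226 and 0.922 TPM in KO. Hnrnpll-201 (ENSMUST00000061331.13), which codes for a protein of the same length as Hnrnpll-205, stayed under 1 TPM in every library. Hnrnpll-205 therefore took between 41.2% and 100% of the gene's estimated counts in the 8 WT and KO libraries, and WT and KO overlapped for each transcript. The log2 fold changes, WT over KO, were 0.49 for Hnrnpll-205 (SE 0.587), 0.32 for Hnrnpll-201 (SE 1.71) and 1.13 for Hnrnpll-203 (SE 1.63), each with an edgeR adjusted p of 1 over 33144 transcripts, of which 1 (0.00302%) was called. When a library was left out they ranged from 0.13 (without WT replicate 2) to 0.78 (without WT replicate 1) for Hnrnpll-205, from 0.06 (without KO replicate 5) to 0.75 (without KO replicate 6) for Hnrnpll-201 and from 0.29 (without WT replicate 1) to 1.70 (without KO replicate 4) for Hnrnpll-203.

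Hnrnpll was among 1997 genes with no count in either HET library and some count elsewhere, and ranked 3 among them by mean level over WT and KO. The 5 with the highest mean were Exosc6, an exosome subunit (7.15 CPM), Dse, an epimerase of dermatan sulfate (3.83 CPM), Hnrnpll (3.71 CPM), the amino acid transporter Slc7a8 (2.62 CPM) and Apol7c (2.48 CPM). Of the 1997 genes, 4 had over 3 estimated counts before rounding in each of the 8 other libraries: Dse, Hnrnpll, Mcoln3 and Ramp2. Dse had 4.78 and 1.66 CPM in WT and between 0.401 and 11.0 CPM in KO. Hnrnpll was the steadier of this pair, with every WT and KO library between 1.82 and 5.15 CPM. Just outside the limit stood Angptl2, with 1 count in HET replicate 1, 0 in HET replicate 2, and a mean of 2.40 CPM over WT and KO; this gene was named after its values were seen.

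The genes next to Hnrnpll on chromosome 17 were read in part. Atl2, which shapes the endoplasmic reticulum and lies on the downstream side of Hnrnpll (chr17:79848390-79896123), had 93.2 and 85.3 CPM in WT, 135 and 123 CPM in HET and 88.1 to 120 CPM in KO. Beyond it, the cytochrome gene Cyp1b1 had 0 counts in all 10 libraries. On the other side Galm, an enzyme of galactose use (chr17:80127471-80185101), had 2.11 and 1.62 CPM in WT, 0 in both HET libraries and 0 to 0.721 CPM in KO. Of the neighbours with counts in some library, Galm shared the absence from HET, and it was also at 0 in KO replicates 1 and 6. Srsf7, a splicing factor and the next gene (chr17:80200080-80207307), had 446 and 421 CPM in WT, 476 and 463 CPM in HET and 490 to 552 CPM in KO. None of the neighbours passed the test in a comparison in which it was tested, with edgeR adjusted p between 0.431 and 0.999.

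Hnrnpl, the widely expressed paralog, had a similar level in every library. Its CPM were 285 and 242 in WT, 288 and 312 in HET, and 224, 275 and 295 as lowest, median and highest in KO. Over the 10 libraries the coefficient of variation was 9.81%, against 65.2% for Hnrnpll and 11.2% for Ptprc. Both HET libraries lay above both WT libraries, as 23.5% of the 14354 genes did, and HET and KO overlapped. Per length, Hnrnpl had 259 and 306 TPM in WT, 313 and 340 TPM in HET and 233 to 294 TPM in KO. In TPM, Hnrnpl was 98.8-fold and 123-fold higher than Hnrnpll in the 2 WT libraries and 116-fold to 339-fold higher in the KO libraries.

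Hnrnpl passed the test in no comparison. Its log2 fold change was -0.02 for WT over KO (SE 0.141, 95% interval -0.33 to 0.29, edgeR adjusted p = 0.999) and 0.17 for HET over KO (SE 0.131, 95% interval -0.12 to 0.45, edgeR adjusted p = 0.676). It was -0.19 for WT over HET (SE 0.162, 95% interval -0.54 to 0.17, edgeR adjusted p = 0.929) and 0.07 for WT plus HET over KO (SE 0.105, 95% interval -0.15 to 0.30, edgeR adjusted p = 0.888). The sign of WT over KO turned with the scale, to 0.11 on log2(TPM + 1).

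Hnrnpl-202 (ENSMUST00000172529.7) took 71.4% to 77.5% of the gene's estimated counts, with 154 and 176 TPM in WT, 174 and 189 TPM in HET and 144 to 161 TPM in KO. HET and KO did not overlap, HET being higher as in 7.34% of the transcripts tested, with a log2 fold change of 0.15 (SE 0.138, edgeR adjusted p = 0.913). The transcript that separated WT from KO was Hnrnpl-213 (ENSMUST00000174882.7), annotated as a target of nonsense-mediated decay. It had 10.1 and 10.3 TPM in WT, 6.00 and 9.60 TPM in HET, and 2.37, 5.56 and 8.79 TPM in KO. Both WT libraries lay above all KO libraries, as in 4.88% of the 33144 transcripts, and the log2 fold change of 0.82 did not pass the test (SE 0.389, 95% interval -0.04 to 1.69, edgeR adjusted p = 1). Hnrnpl-201 (ENSMUST00000038572.14) has a coding sequence of 1761 bases, against 1371 in Hnrnpl-202. It had 8.88 to 15.6 TPM over the 10 libraries, and Hnrnpl-209 (ENSMUST00000174477.7) had 12.1 to 19.8 TPM. Hnrnpl-204 (ENSMUST00000172884.7), a fragment of 502 bases, had 61.5 to 107 TPM but only 5.48% to 7.47% of the estimated counts, since TPM divides by length. The remaining transcript stayed under 1 TPM. WT and KO overlapped for these 4.

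**Figure D2:**
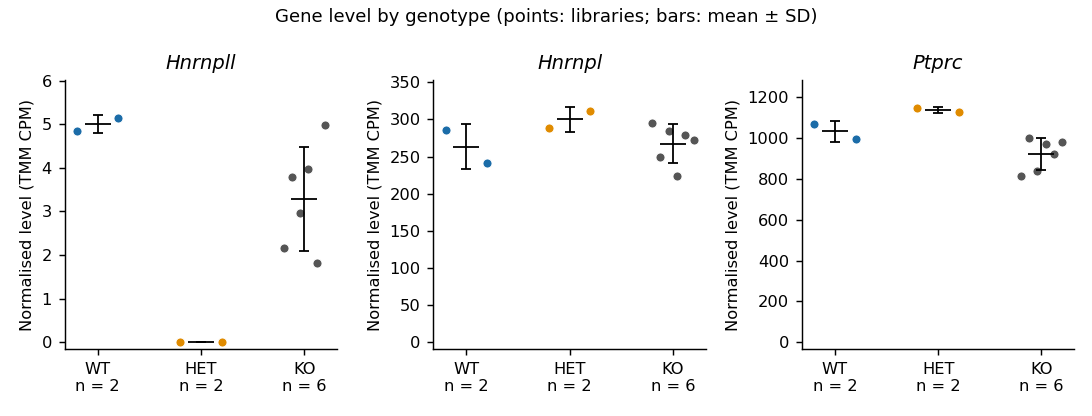
Normalised level (TMM CPM) of Hnrnpll, Hnrnpl and Ptprc in WT (n = 2), HET (n = 2) and KO (n = 6); points are libraries and bars the mean ± SD. Hnrnpll is at 0 in both HET libraries and between 1.82 and 5.15 CPM elsewhere, Hnrnpl lies between 224 and 312 CPM, and for Ptprc both HET libraries lie above all KO libraries.

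Ptprc was among the more abundant genes, with 318 to 520 TPM over the 10 libraries. Its CPM were 1069 and 994 in WT, 1147 and 1128 in HET, and 815, 944 and 999.99 as lowest, median and highest in KO. Both HET libraries lay above all KO libraries, as 8.12% of the 14354 genes did, while WT replicate 2 fell within the KO range. The log2 fold change of HET over KO was 0.31 (SE 0.113, 95% interval 0.06 to 0.55), with an unadjusted p of 0.0196 and an edgeR adjusted p of 0.425. That of WT plus HET over KO was 0.24 (SE 0.0939, 95% interval 0.03 to 0.44), with an edgeR adjusted p of 0.744. Neither passed the test over all genes. WT over KO gave 0.17 (SE 0.126, 95% interval -0.11 to 0.44, edgeR adjusted p = 0.999) and WT over HET gave -0.14 (SE 0.141, 95% interval -0.45 to 0.17, edgeR adjusted p = 0.958). These comparisons share the KO libraries or the control libraries.

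**Figure D3:**
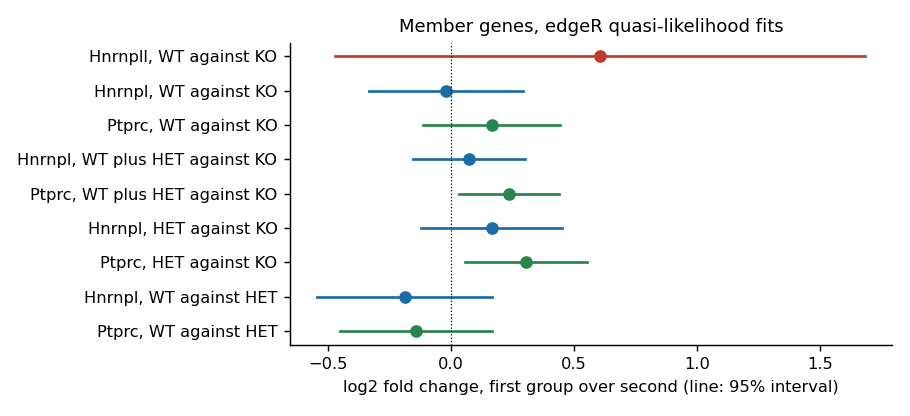
Log2 fold change of each gene, the group named first over the other, with its 95% interval derived from the F statistic of edgeR's quasi-likelihood fits. The intervals of Ptprc for HET over KO (0.06 to 0.55) and WT plus HET over KO (0.03 to 0.44) lie above 0, and none of the 9 values has an adjusted p under 0.1.

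The long form was the main Ptprc transcript in every library. Ptprc-207, with A, B and C, took 85.0% to 94.3% of the gene's estimated counts. It had 269 and 258 TPM in WT, 298 and 300.3 TPM in HET, and 159, 212 and 268 TPM as lowest, median and highest in KO. HET thus stood above all other libraries, and it stood above all KO libraries in 7.34% of the transcripts tested. Ptprc-207 had the smallest unadjusted p of the 5 Ptprc transcripts in HET over KO, with a log2 fold change of 0.37 (SE 0.108, 95% interval 0.13 to 0.61, unadjusted p = 0.00636), but the edgeR adjusted p over 33144 transcripts was 0.718, and 0 transcripts were called in that comparison by edgeR, with 2110 (6.37%) at an unadjusted p under 0.05. In limma on log2(TPM + 1), 13 transcripts were called and the adjusted p of Ptprc-207 was 0.717.

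The form without A, B and C was a small part of Ptprc and was lowest, as a share, in HET. Ptprc-203 had 19.6 and 18.1 TPM in WT, 10.8 and 8.84 TPM in HET, and 6.99, 11.3 and 28.1 TPM in KO. Ptprc-204 had 6.25 and 3.58 TPM in WT, 0.574 and 1.58 TPM in HET, and 0.384, 3.39 and 5.40 TPM in KO. For both, the WT libraries lay above the HET libraries, as in 21.9% of the transcripts, and KO overlapped both groups, although WT replicate 1 stood above every KO library for Ptprc-204. The log2 fold changes of HET over KO were -0.64 for Ptprc-203 (SE 0.463, 95% interval -1.67 to 0.39) and -1.68 for Ptprc-204 (SE 0.990, 95% interval -3.88 to 0.52), with edgeR adjusted p of 0.848 and 0.814. Those of WT over HET were 0.92 (SE 0.550, 95% interval -0.30 to 2.15) and 2.18 (SE 1.14, 95% interval -0.34 to 4.70), both with an edgeR adjusted p of 1. Those of WT over KO were 0.28 (SE 0.438) and 0.50 (SE 0.860), both also at 1. When a library was left out, HET over KO ranged from -0.79 to -0.28 for Ptprc-203 (the latter without KO replicate 6) and from -2.55 (without HET replicate 2) to -1.12 (without HET replicate 1) for Ptprc-204. WT over KO ranged from 0.17 (without KO replicate 1) to 0.65 (without KO replicate 6) for Ptprc-203 and from 0.02 (without WT replicate 1) to 0.88 (without WT replicate 2) for Ptprc-204.

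The fragments had these values. Ptprc-212 had 206 and 199 TPM in WT, 201 and 190 TPM in HET and 91.1 to 220 TPM in KO, which was 27.8% to 43.8% of the gene's TPM but 1.66% to 3.14% of its estimated counts. Ptprc-213 had 6.97 and 5.10 TPM in WT, 8.65 and 12.7 TPM in HET and 3.72 to 13.8 TPM in KO. Both overlapped between KO and each other group.

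**Figure D4:**
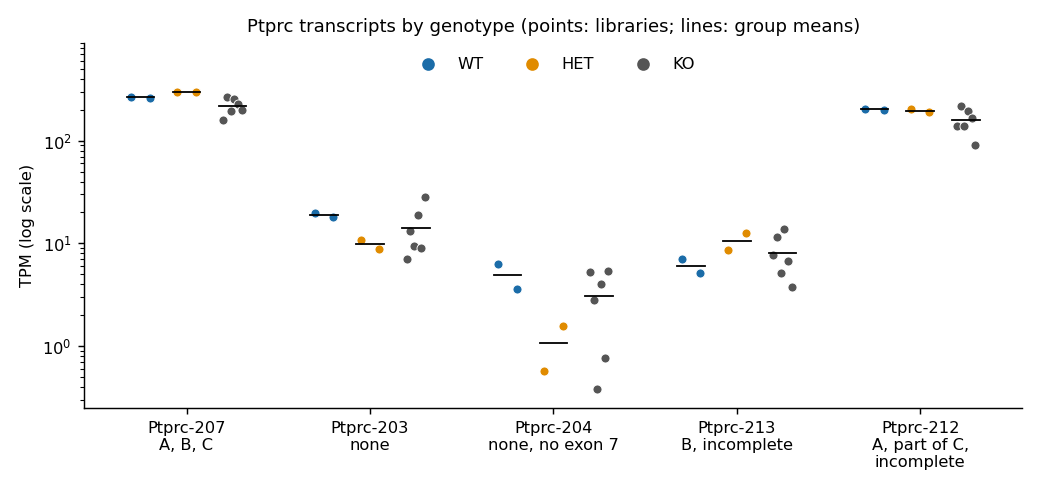
TPM of the 5 Ptprc transcripts on a log scale; points are libraries and lines group means, with the exons A, B and C that each transcript holds named below it. Ptprc-207 lies between 159 and 300.3 TPM, Ptprc-203 between 6.99 and 28.1 TPM and Ptprc-204 between 0.384 and 6.25 TPM.

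Exon use was summarised as the mean number of variable exons per Ptprc transcript, weighted by TPM. It was 2.41 and 2.43 in WT, 2.51 and 2.52 in HET, and 2.39, 2.42 and 2.49 as lowest, median and highest in KO. The HET values stood above the other 8. The difference of HET minus KO was 0.0818 exons (p = 0.0357 by a two-sided exact permutation test, which is the limit for 2 against 6, and 0.143 after adjustment over the 4 comparisons). With KO replicate 1, 2, 4 or 6 left out it had an exact permutation p of 0.0952 to 0.143, at a difference of 0.0731 to 0.0821 exons. With either HET library left out the exact test cannot go below 0.143, and the differences were 0.0786 and 0.0851 exons. The difference of WT minus KO was -0.0108 exons (exact permutation test, p = 0.857), that of WT plus HET minus KO 0.0355 exons (exact permutation test, p = 0.248), and that of WT minus HET -0.0926 exons (p = 0.333 by exact permutation, the limit for 2 against 2). This measure rests partly on the fragment Ptprc-212, whose TPM is large for its counts. An exon held in part was counted whole, so Ptprc-212, with A and 57 bases of C, counted as 2 exons.

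Among the 3 complete transcripts alone, the share of TPM without A, B and C was 8.76% and 7.74% in WT, 3.67% and 3.35% in HET, and 4.14%, 6.39% and 14.4% as lowest, median and highest in KO. This share was added after the data were seen. The HET shares were below those of every other library, and WT stood inside the KO range. The means were 8.25% ± 0.726 (SD, n = 2), 3.51% ± 0.220 (SD, n = 2) and 7.38% ± 3.76 (SD, n = 6). The difference of HET minus KO was -3.87 percentage points (exact permutation test of means, p = 0.179), and without KO replicate 6, the library at 14.4%, it was -2.46 percentage points (exact permutation test, p = 0.0952). That of WT minus KO was 0.869 percentage points (exact permutation test, p = 0.821), and 2.28 percentage points without KO replicate 6. These transcripts drew between 939 and 4297 estimated counts a library, out of 22355 to 44542 for the gene.

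Over the 8 WT and KO libraries, which leave out the heterozygotes that chose the gene, Hnrnpll level and the share without A, B and C had a Pearson r of 0.67 (exact permutation p = 0.0523, adjusted 0.157) and a Spearman rho of 0.79 (exact permutation p = 0.0279, adjusted 0.0838). This is 1 of 9 relations computed, chosen after the data were seen. The p-values were adjusted over the 9 separately for r and rho, and separately for the 8 libraries and within KO. No adjustment was made across these sets. With KO replicates 1 and 5, farthest from the median Hnrnpll level, left out, r was 0.70 (exact permutation p = 0.0944, n = 6). Within the 6 KO libraries r was 0.78 and rho 0.83 (exact permutation p = 0.05 and 0.0583, adjusted 0.15 and 0.175). After adjustment, rho over the 8 libraries was under 0.1, while r and both values within KO were not.

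The libraries with more Hnrnpll also had higher T cell markers. Over the 8 libraries the Hnrnpll level and the summed T cell markers had r = 0.93 (exact permutation p = 0.00233, adjusted 0.0210) and rho = 0.86 (exact permutation p = 0.0107, adjusted 0.0692). Without KO replicates 1 and 5, r was 0.97 (exact permutation p = 0.00833, n = 6), and within KO it was 0.91 (exact permutation p = 0.0181, adjusted 0.0875, n = 6) with rho 0.83 (adjusted 0.175). The T cell markers and the share without A, B and C had r = 0.64 (adjusted exact permutation p = 0.163) and rho = 0.83 (adjusted exact permutation p = 0.0692), and r = 0.86 within KO (adjusted exact permutation p = 0.0875). With the myeloid markers Hnrnpll had r = 0.45 (adjusted exact permutation p = 0.336), and with the summed plasma cell markers r = -0.54 (adjusted exact permutation p = 0.302). Such a sum mostly follows its abundant genes. Over all libraries the plasma cell gene Jchain had 886 to 1392 CPM and Sdc1 only 1.23 to 29.0 CPM. The relation of each plasma cell gene to Hnrnpll was not computed. Ptprc level had r = 0.77 with Hnrnpll (adjusted exact permutation p = 0.135) and Hnrnpl level r = -0.45 (adjusted exact permutation p = 0.336). In sorted bulk cells, fewer cells of a type and less RNA per cell cannot be told apart, and the part of T cells in the Hnrnpll and Ptprc values was not tested.

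**Figure D5:**
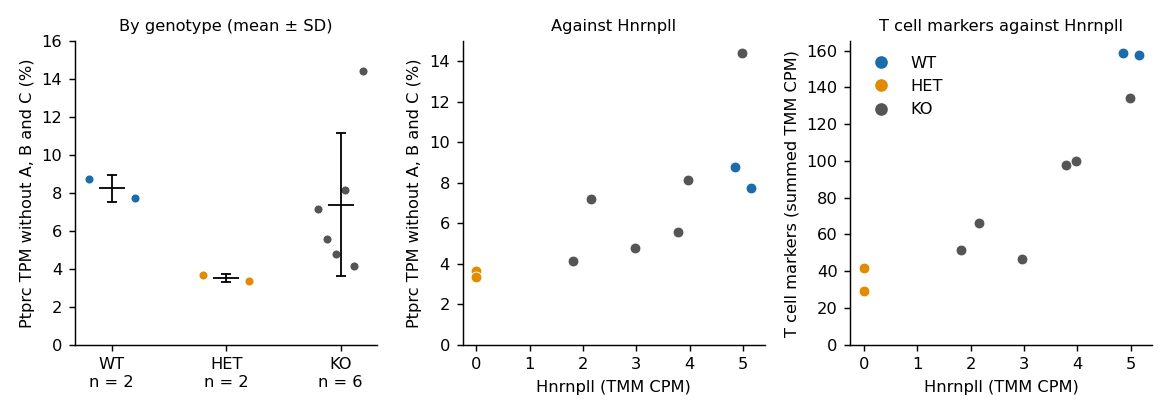
Left, percent of the TPM of complete Ptprc transcripts that lack exons A, B and C by genotype (points: libraries; bars: mean ± SD). Middle and right, that percent and the summed T cell markers (TMM CPM) against Hnrnpll level (TMM CPM), 1 point a library: HET libraries sit at 0 Hnrnpll, 3.35% and 3.67%, and 29.0 and 41.7 CPM of T cell markers.

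The other known regulators of the variable exons were read in all libraries. Of 12 such splicing factors, 0 of 12 tested were called in any of the 4 comparisons in either direction by edgeR, with 0, 2, 2 and 1 at an unadjusted p under 0.05 in WT against KO, WT plus HET against KO, HET against KO and WT against HET, beside 2.18%, 6.3%, 10.2% and 6.42% of all genes. Their median log2 fold change of WT over KO was -0.09, beside -0.01 over all genes tested. Srsf7 had a log2 fold change of -0.24 (SE 0.113, edgeR adjusted p = 0.999), and both WT libraries lay below all KO libraries, as did 2.68% of the 14203 genes. Pcbp2, a poly(C)-binding protein, had 65.3 and 62.0 CPM in WT and 65.7 to 127 CPM in KO, with a log2 fold change of -0.42 (SE 0.240, edgeR adjusted p = 0.999). In HET over KO the list's median was 0.08, beside -0.07 over all genes. Both HET libraries lay above all KO libraries for 5 of the 12, beside 8.12% of all genes, and below them for 1. Both WT libraries lay below both HET libraries for 10 of the 12, beside 23.5% of all genes. The list's median of WT over HET was -0.21, beside 0.01 over all genes.

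Of the polypyrimidine tract binding proteins, which repress exons and are relatives of the L proteins, 0 of 3 were called in any comparison. Ptbp3 had 231 and 219 CPM in WT, 289 and 287 CPM in HET and 212 to 247 CPM in KO, with a log2 fold change of HET over KO of 0.32 (SE 0.105, unadjusted p = 0.0104, edgeR adjusted p = 0.370). Ptbp2, the form best known from neurons, had 13.8 and 11.5 CPM in WT and 11.0 to 17.1 CPM in KO. The median of the 3 was -0.04 in WT over KO and 0.31 in HET over KO.

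Genes of proteins that CD45 acts on or binds were also not called, 0 of 14 in each comparison. The unadjusted edgeR p was under 0.05 for 0 of 14 in WT against KO, beside 2.18% of all genes. In WT plus HET against KO it was 2 of 14, beside 6.3%. In HET against KO it was 4 of 14, beside 10.2%, and in WT against HET 2 of 14, beside 6.42%. Syk, the kinase next to the B cell receptor, had 775 and 858 CPM in WT, 988 and 918 CPM in HET and 510 to 773 CPM in KO. All 4 control libraries lay above all KO libraries, as in 0.989% of the 13347 genes tested, with WT replicate 1 above the highest KO library by a small margin. Its log2 fold change was 0.30 for WT over KO (SE 0.172, edgeR adjusted p = 0.999) and 0.52 for HET over KO (SE 0.158, edgeR adjusted p = 0.370). Cd22, an inhibitory receptor that CD45 binds, had a log2 fold change of 0.23 for WT over KO (SE 0.140, edgeR adjusted p = 0.999). The median of the 14 was 0.08 for WT over KO and 0.03 for HET over KO.

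Among markers of other cells, 0 of 12 T cell, 0 of 10 myeloid, 0 of 10 plasma cell and 0 of 10 GC B cell genes were called in any comparison by edgeR. All 12 T cell genes were higher in both WT libraries than in both HET libraries, as were 24.5% of all genes, and 8 of the 12 had an unadjusted p under 0.05, as did 6.42% of all genes, with a list median of 2.45 on the log2 scale. In WT over KO, 11 of the 12 had a log2 fold change above 0. There, 5 of the 12 had an unadjusted edgeR p under 0.05, beside 2.18% of all genes. In HET against KO it was 6 of the 12, beside 10.2% of all genes. Cd3e codes for a CD3 subunit of the T cell receptor complex. It had 18.0 and 13.7 CPM in WT, 1.59 and 4.20 CPM in HET and 3.70 to 7.40 CPM in KO. In the same order Cd3g had 15.9 and 13.3, 1.56 and 3.11, and 2.90 to 9.31 CPM. The medians of HET over KO were -1.21 for the T cell list, -1.56 for the myeloid list, -0.41 for the plasma cell list and 0.19 for the GC B cell list. Those of WT over KO were 0.95, 0.84, -0.09 and -0.21. The myeloid genes Adgre1 and Itgam had log2 fold changes of WT over KO of 0.92 (SE 0.597) and 1.03 (SE 0.729), the plasma cell genes Creb3l2 and Mzb1 1.08 (SE 0.583) and -0.23 (SE 0.172), and the GC B cell genes Rgs13 and Fas -0.49 (SE 0.293) and -0.21 (SE 0.204).

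Across the 10 libraries, the genes whose log2(CPM + 1) followed Hnrnpll most closely among 14354 were Fam105a (Pearson r = 0.96), Emc9 (0.95) and Itgb7 (0.94). Itgb7, a lymphocyte integrin subunit, had 48.3 and 58.3 CPM in WT, 20.5 and 24.2 CPM in HET and 35.1 to 62.3 CPM in KO. Those closest to Hnrnpl were Actg1 (0.95), Hnrnpa3 (0.94) and Pabpc1 (0.91), and those closest to Ptprc were Srcap (0.96), Smc5 (0.95) and Smg5 (0.95). Between the members r was -0.62 for Hnrnpll and Hnrnpl, -0.43 for Hnrnpll and Ptprc and 0.07 for Hnrnpl and Ptprc. Over the 8 WT and KO libraries, on CPM, r was 0.77 for Hnrnpll and Ptprc, the opposite sign. For Hnrnpll and Hnrnpl it was -0.45 there. The points share their library's depth and scaling, and the HET libraries at 0 weigh on each value for Hnrnpll, so these are descriptions of the 10 libraries.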

How the data were processed

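RNA of sorted NP-specific germinal center B cells was sequenced by the authors as paired-end SMART-Seq v4 libraries, without molecular identifiers. The authors quantified Gencode vM17 coding transcripts with Salmon 0.9.1 and deposited estimated counts, not normalized, and TPM, which Salmon derives from counts and effective lengths. The deposited tables also give transcript lengths. The authors tested differences with DESeq2.

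Here estimated counts were summed per gene and rounded. Comparisons of HET with either other group used a fit of all 10 libraries, and the remaining 2 used the libraries they compare, with edgeR 4.0.16 (quasi-likelihood, TMM, filterByExpr) and Benjamini-Hochberg adjustment over all genes or transcripts at 0.1. Transcripts were fitted on all 10 libraries. Exon measures were compared by two-sided exact permutation of group means. Alternatives used DESeq2 1.42.0 and limma 3.58.1. The edgeR gene fits were tested on simulated counts with 100 genes changed 2-fold and 100 changed 4-fold. Of the 2-fold changes, 39% were recovered in WT against KO and 36% in HET against KO. Of the 4-fold changes, 64% and 68% were recovered, with 10 false calls in each comparison. Many changes of these sizes would thus be missed. All were changed in the same simulated set, which loosens the Benjamini-Hochberg cutoff, so the recovery of a lone changed gene was not measured. Exon positions and sequences came from Gencode vM21 (GRCm38). The total per library was 26612431 to 41059082 estimated counts, and 0 counts allow up to 3.

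The members and gene lists were chosen with earlier results of these data known. Named were, in each list, called genes and the 2 with the smallest unadjusted p in WT against KO, the 2 nearest quantified genes on each side of Hnrnpll, the 3 genes most like each member and the 5 highest genes at 0 in HET. Nothing in the labels ties libraries to single mice, but the authors' figure legend counts 2 WT and 6 KO mice, as many as the libraries. The p-values measure the spread between these libraries. Single values of some marker genes are not reported here.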

Additional observations from a re-analysis of the deposited data

Results flagged for a closer look

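Of 34 sets of 6 KO values checked for a single library far from the others, 2 had one, and chance gives about 1 in 20, or 1.7 of 34. In KO replicate 6, Ptprc-203, the transcript without exons A, B and C, made up 12.1% of the TPM of complete Ptprc transcripts, while the next KO library stood at 6.72%. In KO replicate 4, the myeloid markers summed to 682 CPM, while the next KO library stood at 235 CPM. The part of either library's cell content in these values was not tested.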

How the results depend on the processing

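Hnrnpl and Ptprc passed an adjusted p of 0.1 under none of the settings tried, and the closest was Ptprc in HET over KO with DESeq2 (log2 fold change 0.31, adjusted p = 0.114). Hnrnpll in WT over KO passed under none either, with log2 fold changes of 0.49 to 0.76 when a library was left out. Hnrnpl in WT over KO turned sign, from -0.02 to 0.11 in limma on log2(TPM + 1), and ranged from -0.15 to 0.10 when a library was left out.

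The number of genes called, 1 in each comparison, became 10 in WT against KO, 25 in WT plus HET against KO, 505 in HET against KO and 168 in WT against HET with DESeq2. It became 0 in each of WT against KO and WT plus HET against KO with limma and with counts scaled by transcript length, and 2 in HET against KO without a filter. In limma the 1 gene called in HET against KO was higher, not lower, in HET, and that in WT against HET was lower, not higher, in WT, so neither was Hnrnpll. With the replicate number as a block it was 3, 0, 4 and 66 genes in that order of comparisons and 0, 2 and 2 transcripts in WT against KO, HET against KO and WT against HET. The labels do not say whether libraries with the same replicate number were paired. Deviations of libraries with the same number correlated between -0.01 and 0.13. In a group of 2 libraries the deviations mirror each other, and libraries with different numbers were not compared, so these values cannot settle pairing. With limma the transcripts called were 7, 13 and 7, against 1, 0 and 0. Leaving out a library gave 0 to 2 genes in WT against KO (0 without either WT library or KO replicates 1, 3, 4 or 5), 1 to 2 in WT plus HET against KO (2 without WT replicate 1), 0 to 5 in HET against KO (0 without either WT or either HET library or KO replicates 3 or 4, 3 without KO replicate 6, 5 without KO replicate 2) and 0 to 16 in WT against HET (16 without KO replicate 6, 0 without either WT or either HET library or KO replicates 2, 3 or 4). For transcripts it gave 0 to 1 in WT against KO (0 without either WT library or KO replicates 3, 4 or 5), 0 to 2 in HET against KO (1 without KO replicate 6, 2 without KO replicate 5) and 0 in WT against HET. The cause was not tested.

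For variable exons per Ptprc transcript, HET over KO no longer passed an unadjusted 0.05 when weighted by estimated counts (0.107 exons, exact permutation p = 0.179), over complete transcripts only (0.116 exons, exact permutation p = 0.179) or as the log2 ratio of transcripts with no variable exon to the others (-0.95, exact permutation p = 0.143), all with more variable exons in HET. When a library was left out the differences ranged from 0.0731 to 0.0927 exons for HET minus KO, from -0.0203 to 9.16e-05 for WT minus KO (the latter without KO replicate 5), from 0.0190 to 0.0541 for WT plus HET minus KO and from -0.102 to -0.0831 for WT minus HET. With 2 WT and 2 HET libraries, exact tests between them cannot pass, and the low counts of Hnrnpll leave its transcript shares imprecise.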
